A study of Rattus norvegicus with 8 samples.

Results

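Annexins are proteins that bind acidic phospholipids of cell membranes when calcium rises, and they take part in membrane repair, vesicle traffic and the control of inflammation. In the injured nervous system they are known from microglia, macrophages and reactive astrocytes. The genes described here are those of rat Anxa1 (ENSRNOG00000017469), Anxa2 (ENSRNOG00000010362), Anxa3 (ENSRNOG00000002045) and Anxa5 (ENSRNOG00000014453). They were chosen by identifier, and all 4 were among the 32883 Ensembl genes of the deposited table. The table holds no gene symbols, so the names of the 4 rest on their identifiers alone.

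Both groups were spinal cord of Sprague Dawley rats, with no transgene or drug named. The injured group (4 libraries) was taken 4 days after a hemisection at thoracic level 9, and the uninjured group (4 libraries) came from rats without spinal cord injury. Upper lumbar cord is named in the title and upper spinal cord in the labels, and the series asks what injury does to the transcriptome of cord that was itself intact. The sources used here do not state age, sex, any sham surgery, or if 1 animal gave 1 library. CEL-Seq2 was used for library preparation. It reads transcripts near their 3' end and labels every molecule with a short random sequence (unique molecular identifier, UMI), so that copies made by PCR are counted once. Libraries held 195113 to 320199 UMIs in the injured and 112264 to 221177 in the uninjured group. Levels below are UMIs per 1000000 of the library total (CPM). One tag stands for 1 transcript end, so they are not divided by gene length. Because the other identifiers could not be joined to gene symbols, markers of microglia, blood cells, astrocytes, neurons and other cell types were not analysed here, and their part in the values below was not tested. In bulk tissue, more cells of a type and more RNA per cell cannot be told apart.

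Each annexin had a higher mean level in injured cord, and Anxa3 passed the test. The 4 genes together gave between 109 and 298 UMIs in an injured library, against 32 to 85 in an uninjured one. Summed, they averaged 293 ± 64.9 CPM without injury and 818 ± 177 CPM after it (SD, n = 4 each), a ratio of 2.79 that was not tested and to which Anxa3 gave the most UMIs. The injured libraries 1 to 4 were at 931, 931, 852 and 559 CPM, the uninjured ones at 384, 294, 238 and 257 CPM. The lowest injured sum, in library 4, was thus 1.45 times the highest uninjured one, in library 1. Of the 3 annexins abundant enough for the test over 3073 genes, Anxa3 passed (quasi-likelihood F-test of edgeR, p adjusted by Benjamini-Hochberg over all genes tested, below 0.05) and Anxa2 and Anxa5 did not, while Anxa1 was too low to enter it. Of all genes tested, 2.28% were called higher. None of the 3 was lower, at an adjusted or unadjusted p under 0.05.

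**Figure D1:**
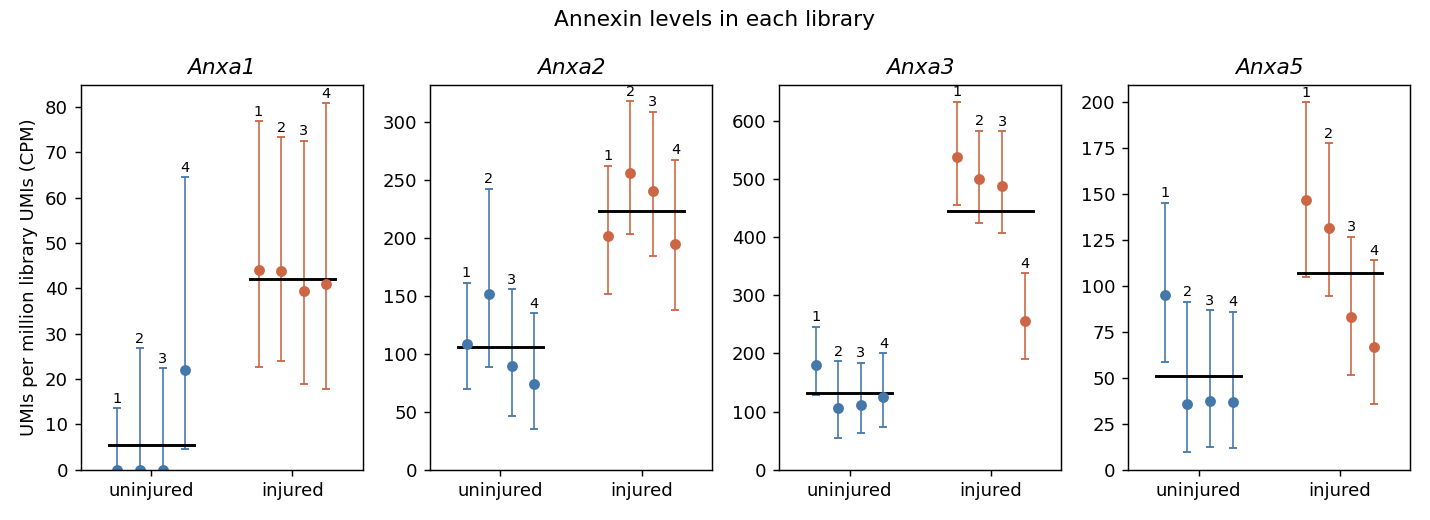
Level of each annexin (vertical axes, CPM of the library total, a separate scale per gene) in uninjured (blue) and injured (orange) libraries, numbered as in the sample titles. Points are libraries, thin bars their 95% Clopper-Pearson intervals or, at 0 UMIs, the limit of 3 counts (counting error only), and black lines the group means. The groups are apart for Anxa1, Anxa2 and Anxa3, while for Anxa5 uninjured library 1 lies above injured libraries 3 and 4. Of the 3073 genes tested, 7.52% were apart in this direction, and 4.20% of the 12612 genes with any count. For Anxa1 the interval of uninjured library 4 covers every injured value.

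Anxa3 is an annexin described in microglia of the rat central nervous system. Injured libraries 1 to 4 had 147, 160, 124 and 50 UMIs of it, or 539, 500, 489 and 256 CPM. Uninjured libraries 1 to 4 had 40, 12, 15 and 17 UMIs, or 181, 107, 112 and 125 CPM. Every injured library was above every uninjured one, and injured library 4 stood well below the other injured libraries. Anxa3 rose from 131 ± 34.1 to 446 ± 128 CPM (SD, n = 4 each). On the log2 scale the fitted rise was 1.61 (SE 0.27, 95% interval 1.05 to 2.17, edgeR adjusted p = 0.00297). Within libraries of the same number the ratio ran from 2.05 (number 4) to 4.67 (number 2). Leaving out any 1 library kept the call.

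Injured library 4 set the spread of Anxa3 in its group. The squared deviations from the pooled rate, per degree of freedom, were 7.58 times those of counting alone in the injured and 1.51 times in the uninjured group. Without injured library 4 the injured value was 0.365, and the log2 fold change was 1.78 (edgeR adjusted p = 0.000486).

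Anxa2 forms a complex with S100a10 at the inner face of the plasma membrane and, at the cell surface, binds plasminogen and its activator. Injured libraries 1 to 4 had 55, 82, 61 and 38 UMIs, or 202, 256, 240.5 and 195 CPM. Uninjured libraries 1 to 4 had 24, 17, 12 and 10 UMIs, or 109, 151, 89.2 and 73.5 CPM. The groups did not overlap, and the lowest injured value was 1.29 times the highest uninjured one, in library 2. Its mean was 106 ± 33.7 CPM without injury and 223 ± 29.8 CPM after it (SD, n = 4 each). The log2 fold change was 0.97 (SE 0.26, 95% interval 0.42 to 1.52) and missed the threshold (edgeR adjusted p = 0.0582, unadjusted p = 0.0018).

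Libraries of both groups share the numbers 1 to 4 in their titles, and same-numbered libraries deviated together. With the number as a block, Anxa2 was called higher (log2 fold change 0.95, SE 0.22, edgeR adjusted p = 0.00581), in a fit that called 6.77% of genes higher. Its ratio within same-numbered libraries was 1.86, 1.69, 2.70 and 2.65 for numbers 1 to 4, above 1 in 4 of 4. How many of all genes were above 1 in every number was not counted. Scaling by total counts alone, without the block, also called it (log2 fold change 1.12, edgeR adjusted p = 0.0285, with 3.58% of genes called higher). So did a minimum mean count of 20 (edgeR adjusted p = 0.0471, with 4.14% of genes called higher), and at an adjusted p below 0.10 Anxa2 is counted with 3.68% of all genes. That scaling moved the median of all tested genes from -0.03 to 0.12. Relative to the median, Anxa3 was at 1.64 under both scalings, Anxa5 at 0.89 (TMM) and 0.87 (total counts), and Anxa2 had the same value to 2 decimals under both. Within each group, the spread of Anxa2 was close to counting error, at 1.02 times in injured and 1.32 times in uninjured cord.

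Anxa5 binds phosphatidylserine that dying cells expose, the property that made it a stain for apoptosis. Injured libraries 1 to 4 had 40, 42, 21 and 13 UMIs, or 147, 131, 82.8 and 66.6 CPM. Uninjured libraries 1 to 4 had 21, 4, 5 and 5 UMIs, or 94.9, 35.6, 37.2 and 36.8 CPM. The groups overlapped: uninjured library 1 stood above injured libraries 3 and 4, and the other three uninjured libraries were below every injured one. Without injury the mean was 51.1 ± 29.2 CPM, and after it 107 ± 38.2 CPM (SD, n = 4 each). Anxa5 met the minimum count of the test in every injured library but only in library 1 of the uninjured ones. It thus entered the test through the group where it was high. The log2 fold change of 0.85 (SE 0.36, 95% interval 0.09 to 1.62) did not pass after adjustment (edgeR adjusted p = 0.287, unadjusted p = 0.0309). The interval, which is not adjusted for the number of genes, reaches from 1.06-fold to 3.07-fold.

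Uninjured library 1 weighed most on Anxa5. Without it the log2 fold change was 1.35 (edgeR adjusted p = 0.142). Over all libraries, the spread of Anxa5 was 3.18 times counting error in injured and 2.75 times in uninjured cord. Compared within numbers, Anxa5 was higher in the injured library in 4 of 4, at ratios of 1.54, 3.68, 2.23 and 1.81. The share of all genes with this pattern was not counted. With the number as a block it still missed the threshold (log2 fold change 0.91, edgeR adjusted p = 0.0589). It was called only with the block and total counts together (1.04, edgeR adjusted p = 0.0268), a fit that called 10.1% of all genes higher.

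Anxa1, induced by glucocorticoids, is a ligand of formyl peptide receptors and is known for limiting neutrophil entry and helping inflammation to resolve. It was the annexin with the fewest counts. Injured libraries 1 to 4 had 12, 14, 10 and 8 UMIs, or 44.0, 43.7, 39.4 and 41.0 CPM. Uninjured libraries 1 to 3 had 0 UMIs, which allows up to 13.6, 26.7 and 22.3 CPM (3 counts), and uninjured library 4 had 3 UMIs, or 22.1 CPM. Anxa1 was thus seen in every injured library and in 1 of 4 uninjured ones. Over the groups, 44 UMIs in injured against 3 in uninjured cord gave a ratio of 8.50, with an exact 95% interval for counting error of 2.73 to 42.8. The uninjured libraries spread 3.44 times counting error, at expected counts as low as 0.558, and the interval leaves this spread out. The interval of uninjured library 4 alone, 4.55 to 64.5 CPM, covered every injured value.

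Anxa1 did not reach the count minimum of the test over 3073 genes. Fitted by edgeR without that minimum, over 12612 genes, it rose by 2.91 on the log2 scale (SE 0.67, edgeR adjusted p = 0.00206), and 1.78% of those genes were called higher. The call was lost without uninjured library 1 (log2 fold change 2.32, edgeR adjusted p = 0.119), without uninjured library 3 (2.61, edgeR adjusted p = 0.064) and with all libraries thinned to the depth of the smallest (2.57, edgeR adjusted p = 0.135). Without uninjured library 4 all remaining uninjured libraries were at 0. The injured group, at 42.2 CPM, was then 6.59 times a limit of 3 counts over those 3 libraries (6.41 CPM). This ratio leaves out the 1 uninjured library with counts and the counting error of injured cord, so it sets no lower bound on the fold. In the unfiltered fit Anxa2 was also called (log2 fold change 1.08, edgeR adjusted p = 0.0341). That call held in 8 of 17 alternatives run without the filter. It was lost without injured library 2 (edgeR adjusted p = 0.218) or 3 (0.0863) and without uninjured library 1 (0.112), 3 (0.140) or 4 (0.0983). The Anxa2 call was also lost with DESeq2 size factors in edgeR (edgeR adjusted p = 0.0840) and with thinning (edgeR adjusted p = 0.428). Neither limma-voom (limma adjusted p = 0.0667) nor DESeq2 (DESeq2 adjusted p = 0.0766) called Anxa2. Anxa3 was called as well (1.71, edgeR adjusted p = 2.37e-06), also in 17 of those 17 alternatives, while Anxa5 was not (0.94, edgeR adjusted p = 0.236).

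**Figure D2:**
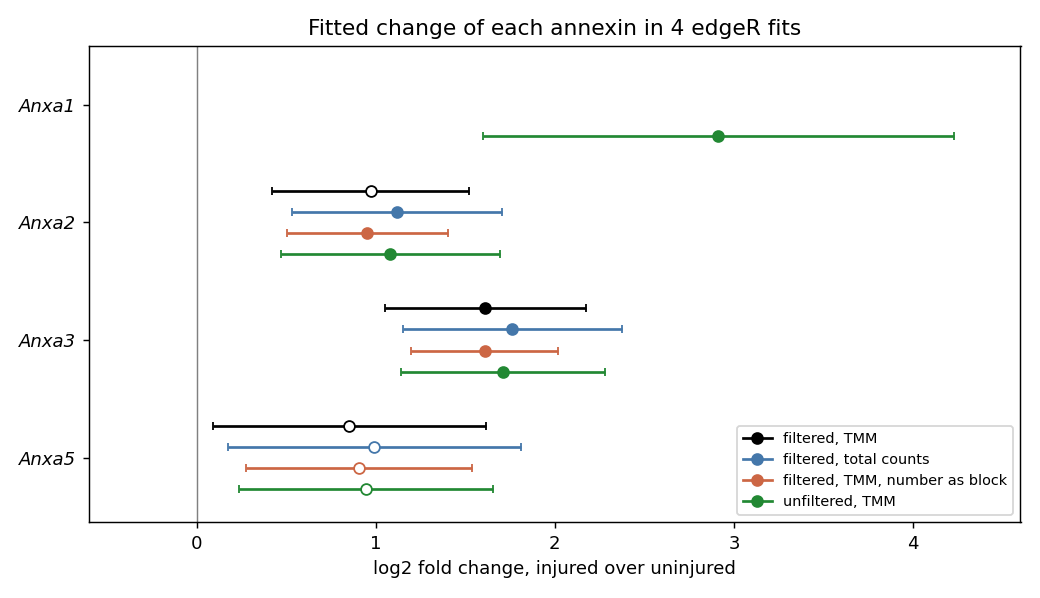
Fitted log2 fold change of injured over uninjured cord (horizontal axis) with its unadjusted 95% interval for each annexin under 4 edgeR fits, filled where the adjusted p was below 0.05. Anxa3 is filled in each fit, Anxa2 in 3 of 4 and Anxa5 in none, and Anxa1 was measured in the unfiltered fit only.

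The absence of overlap was counted over all genes as a background. Every injured library lay above every uninjured one for Anxa2 and Anxa3 but not Anxa5, that is 2 of the 3 tested, and for 7.52% of the 3073 genes tested. Among the 12612 genes with any count, 4.20% were separated in this way, Anxa1 included. The fitted rises of the 3 tested annexins had 41 (Anxa3), 143 (Anxa2) and 179 (Anxa5) of the 3073 genes above them, around a median of -0.03. Anxa5 entered these 3073 genes through the injured libraries, where it was high, so its place among them lends its rise no support. In the unfiltered fit, with a median of 0.17 and many genes of very few counts, 219 (Anxa1), 1153 (Anxa3), 2763 (Anxa2) and 3083 (Anxa5) of the 12612 genes had a larger one. The annexins were chosen with results of these libraries known, so this position is a description of them.

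**Figure D3:**
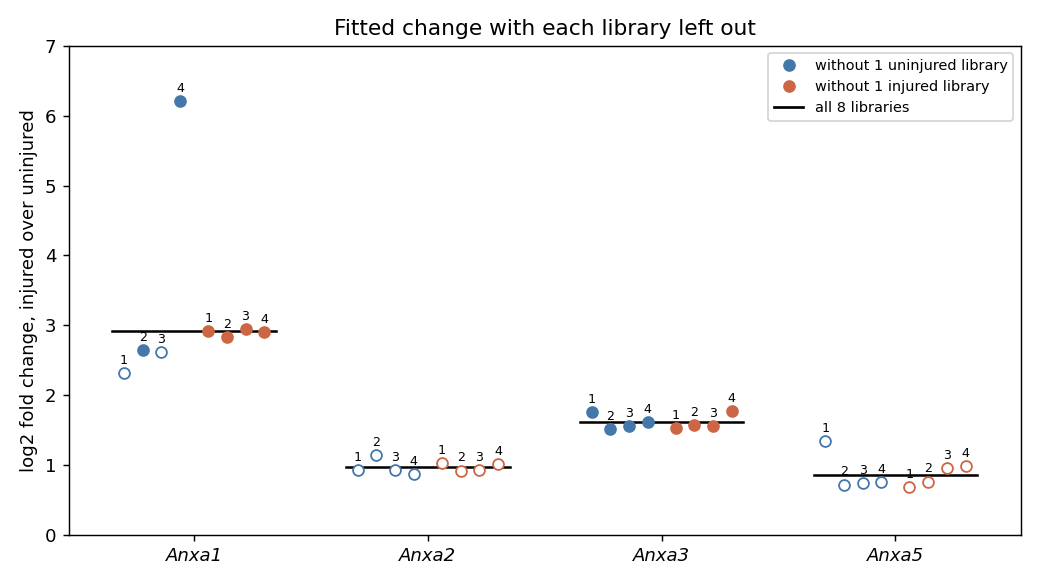
Fitted log2 fold change (vertical axis) of each annexin with 1 library left out, numbered as in the titles, beside the value with all 8 libraries (black line), filled where the adjusted p was below 0.05. Anxa1 is from the unfiltered fit, and its highest point, without uninjured library 4, has no fold to read because the remaining uninjured libraries are at 0. Anxa3 stays filled throughout, from 1.52 to 1.78.

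Whether the annexins changed unequally was tested on ratios between them within a library, which do not depend on scaling. On the log2 scale with 0.5 UMI added, Anxa5 relative to Anxa3 averaged -1.39 ± 0.33 without injury and -2.05 ± 0.32 after it (SD, n = 4 each). It was -1.86, -1.92, -2.53 and -1.90 in injured libraries 1 to 4 and -0.91, -1.47, -1.49 and -1.67 in uninjured libraries 1 to 4, with no overlap. The difference of -0.67 (SE 0.23) had a two-sided exact permutation p = 0.0286, the smallest that 4 against 4 allows, and 0.171 after adjustment over the 6 ratios tested. Anxa3 relative to Anxa2 was higher in injured libraries by 0.62 (SE 0.36, two-sided exact permutation p = 0.143, adjusted 0.214). Anxa5 relative to Anxa2 differed by -0.04 (SE 0.45, two-sided exact permutation p = 0.943, also after adjustment). For the 3 ratios to Anxa1, which rest on its few UMIs, the exact permutation p ran from 0.143 to 0.229. With 6 ratios, fewer than 4 at the smallest possible p cannot pass after adjustment, so the adjusted values do not show that any pair of annexins changed equally.

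In composition, Anxa3 gave 53.7% ± 5.55 (SD, n = 4) of the 4 annexins' UMIs after injury, against 44.7% ± 5.62 (SD, n = 4) without it. Anxa2 gave 28.1% ± 5.41 and 36.5% ± 10.9, Anxa5 12.9% ± 2.62 and 16.7% ± 5.54, and Anxa1 5.35% ± 1.33 and 2.14% ± 4.29 (SD, n = 4 in each case). The ranges of the groups overlapped for each of the 4 shares.

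Over the 8 libraries, 2 genes were picked as most like the annexins, by the mean over the 4 of Pearson's r of log2 CPM. ENSRNOG00000013057 had a mean r of 0.883, from 0.826 with Anxa5 to 0.970 with Anxa3. Its mean was 11.2 ± 3.53 CPM without injury and 137 ± 68.4 CPM after it (SD, n = 4 each). The log2 fold change of this gene, 3.41, was called (edgeR adjusted p = 0.000508). ENSRNOG00000009820 had a mean r of 0.881, from 0.760 with Anxa1 to 0.979 with Anxa3. It averaged 147 ± 19.3 CPM without injury and 243 ± 36.2 CPM after it (SD, n = 4 each), and its own log2 fold change of 0.59 was not called (edgeR adjusted p = 0.222). The median of this mean r over 3070 genes was 0.165. These values describe 8 libraries that fall into the study's 2 groups, so a gene that differs between the groups scores high. Library totals also differed, at 195113 to 320199 UMIs in injured and 112264 to 221177 in uninjured cord, and their part in r was not tested.

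The sequence before the start site was compared among the 4 annexins. It is shown for Anxa1, Anxa2 and Anxa3, from RefSeq (assembly GRCr8, not the build of the counts), to which all 4 genes matched by symbol. That of Anxa5 is not shown because 239 of its 250 bases lie inside the annotated gene. The stretches of Anxa2 and Anxa3 lie outside the annotated gene, and that of Anxa1 is limited to 30 bases because its whole window lies inside it. Capitals mark matches on either strand to the motifs searched:

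Anxa1, chr1:227303763-227303792, minus strand, 60 to 31 bases before the start: ttcagttcatatccTATAAAatcaggagtc
Anxa2, chr8:78986122-78986221, plus strand, 130 to 31 bases before the start: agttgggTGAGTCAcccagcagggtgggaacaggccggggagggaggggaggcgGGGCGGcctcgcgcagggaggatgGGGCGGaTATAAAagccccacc
Anxa3, chr14:13085707-13085807, minus strand, 210 to 110 bases before the start: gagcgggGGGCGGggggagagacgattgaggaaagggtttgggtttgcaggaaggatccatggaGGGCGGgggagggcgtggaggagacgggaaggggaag

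Over the 250 bases before the start, Anxa1 and Anxa2 held the TATA box TATAAA, at 46 and 45 bases before it, which 12.9% of 33469 RefSeq promoters hold. Anxa2, Anxa3 and Anxa5 held the GC box GGGCGG, with 2, 3 and 1 matches, as 30.5% of promoters do. Anxa2 alone of the 4 held the AP-1 motif TGANTCA, 123 bases before the start, as 6.34% of promoters do. The CCAAT box CCAAT (34.0% of promoters), the STAT motif TTCNNNGAA (7.67%), the E-box CACGTG (5.59%), the cyclic AMP element TGACGTCA (1.59%) and the NF-kB consensus (3.54%) were not found in these windows. In GC content the Anxa1 window stood apart, at 45.2% against 67.2% (Anxa2), 64.0% (Anxa3) and 65.2% (Anxa5), with a median of 51.2% over all promoters. Of the 250 bases, 250 (Anxa1), 81 (Anxa3) and 239 (Anxa5) lie within the gene as RefSeq annotates it, which thus has a start further upstream, and 0 for Anxa2. A match is a description of these letters and not evidence of binding.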

How the data were processed

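The values deposited by the authors are UMI counts, whole numbers without normalization, for each Ensembl gene. HISAT2 2.0.4, HTSeq 0.6.0 and Rnor_6.0 are named in the submitters' processing notes; annotation release, UMI collapsing and strand: not given in the sources used here. Annexin counts reached 160, against 4047 for the highest count of the table. All columns matched a sample by the code in its title (0 unmatched).

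The members, gene lists and tests were chosen with earlier results of these data known. Genes were tested in R 4.3.3 with edgeR 4.0.16 (filterByExpr at a minimum count of 10 and minimum total of 15, TMM, glmQLFit with legacy off, all 8 libraries, group only). This kept 3073 genes with 89.0% of the counts, and p-values were adjusted over all of them. Anxa1 failed the filter, so its value comes from the fit without it. Standard errors are the log2 fold change over the square root of F. Ratios between annexins were compared by exact permutation. Alternatives were other scalings and filters, DESeq2 1.42.0, limma-voom (limma 3.58.1), a block, thinning (11 draws, medians), a correction for collisions among 4096 tags (a tag length inferred from the counts), and leaving out libraries.

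Same-numbered libraries had correlated deviations from their group means over the tested genes (r from 0.297 to 0.423, other pairs -0.311 to 0.241). Each exceeded 0.1, so the number was run as a block in alternative fits, a reading taken from the data and from no label. The main fit used group only and left this pairing out. In 12 comparisons within groups libraries differed beyond counting noise (chi-square per degree of freedom of 2.21 or more), so none was merged. No label says that libraries came from separate animals, so p-values measure only the spread between these libraries. Intervals and limits for counts cover counting error only.

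The rule for named genes was the 4 annexins and the 2 genes most like them in course. Of the identifiers, 0 matched the RefSeq gene table, so lists of other annexins, annexin partners and cell type markers were not analysed here.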

Additional observations from a re-analysis of the deposited data

Results flagged for a closer look

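In 2 of 8 sets of 4 values, 1 library lay far from the others. For values without ties chance gives about 1 in 20 such sets. Anxa5 in uninjured library 1 reached 94.9 CPM, and the rest of that group lay between 35.6 and 37.2 CPM. That library was also the deepest of its group, with 221177 UMIs, and had the highest Anxa3 level of the uninjured group (181 CPM). Anxa1 was at 22.1 CPM in uninjured library 4, which rests on 3 UMIs, with 0 UMIs in the other three. With 3 values tied at 0, any count in the remaining library sets it apart, so this case has no chance rate. The part of depth in either value was not tested.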

How the results depend on the processing

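Each annexin kept a positive log2 fold change in every alternative that gave it a value. Anxa3 kept its call in all 19 (1.52 to 1.78). Anxa2 was called in 5 of 19: with the replicate block (0.95), total counts (1.12), both (1.11), no filter (1.08) and a minimum mean count of 20 (0.97). Its edgeR adjusted p was 0.0515 to 0.171 without 1 library, with log2 fold changes of 0.87 to 1.15. Anxa5 was called in 1 of 18, with block and total counts together (1.04, edgeR adjusted p = 0.0268). A minimum mean count of 20 left Anxa5 untested. Anxa1, run without the filter throughout, kept its call in 13 of 16, replicate block included, and lost it when thinned (2.57) and without uninjured library 1 or 3; without 1 library it ran from 2.32 to 6.22, the latter a fit against libraries at 0 and no fold. DESeq2 gave Anxa1 no adjusted p. The annexins called higher thus numbered 1, against 2 with the block, total counts, a mean count of at least 20 or adjusted p below 0.10, and 3 with block and total counts or no filter, and 0 were called lower in each; of all genes, 2.28% were called higher, against 6.77% (block), 3.58% (total counts), 4.14% (mean count), 3.68% (adjusted p below 0.10), 10.1% (block and total counts) and 1.78% (no filter). The difference in Anxa5 relative to Anxa2 ran from -0.341 to 0.249 without 1 library, changing sign without injured library 3 (0.0918) or 4 (0.0904) and without uninjured library 1 (0.249) or 4 (0.000831). No other ratio changed sign, and no ratio passed after adjustment. No ratio can pass in the paired form, where 0.125 is the smallest p. The same holds with 1 library left out, where too few arrangements remain for a p below 0.05. With all libraries thinned to the smallest, only Anxa3 was called, and no draw of 11 called Anxa1, Anxa2 or Anxa5. With the filter, Anxa5 entered the test in 4 of these draws and Anxa1 in 0, while without it each was tested in 11. The cause of these changes was not tested.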
